A study of Mus musculus with 6 samples.

Results

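Chromosome 3 genes were described by position as they differed between 4T1 parental (P) cells and their axitinib-resistant (AxR) derivatives. A gene was a member if the GRCm38 annotation places it on chromosome 3 and it had at least 10 estimated counts in at least 3 of the 6 libraries, which held for 721 of the 2884 chromosome 3 genes in the table. The table lists 53465 genes, of which 13609 passed the same filter over all chromosomes. The chromosome was chosen by the log2 fold changes of its genes between the same AxR and P libraries, which were higher than those of most chromosomes, so every AxR value set against P here is a description, and calls are given as counts, to be read against the share of all genes called.

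4T1 is a mammary carcinoma line from BALB/c mice that spreads spontaneously from the mammary fat pad. P cells were the treatment-naive, vehicle-treated line. AxR cells came from metastatic lesions of lung or lymph node that grew after the primary tumor had been resected, in mice given axitinib, an inhibitor of the VEGF receptor kinases, at 100 mg/kg/day, and they were then kept in culture in 0.5 μM axitinib for more than 2 months. All cells grew in RPMI with 5% serum. A growth label names 0.5 μM axitinib for all 6 samples, whereas the treatment labels give it for AxR only. Each line had 3 libraries of poly(A)-selected RNA, and no source used here says whether these were separate cultures, so their spread may be technical. AxR is a single derivative line, so a difference between the lines cannot be told apart from a property of the cells that founded the lesion.

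Depth was 15495260 to 17294525 estimated counts per library. Mammary epithelial markers summed to 1913 to 2070 CPM (counts scaled to a common library size) in P and 2634 to 2714 CPM in AxR, with the basal keratin Krt5 at 0 in every library. Leukocyte markers summed to 9.49 to 9.81 CPM in P and 33.5 to 43.6 CPM in AxR, with 2 of 10 at 1 CPM or more in a library and Cd3e, Fcer1g and Tyrobp at 0. Fibroblast markers summed to 22.4 to 24.2 CPM in P and 10.3 to 11.9 CPM in AxR, with 1 of 9 at 1 CPM or more and Col3a1, Lum and Thy1 at 0. Lung epithelial markers summed to 0.577 to 1.16 CPM in P and 4.16 to 4.21 CPM in AxR, with 1 of 8 at 1 CPM or more and Nkx2-1, Scgb1a1 and Sftpd at 0. Endothelial markers stayed under 0.7 CPM in every library, with 0 of 7 at 1 CPM or more and Emcn and Kdr at 0. The part of these other cell types in the values below was not tested.

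Mouse chromosome 3 is acrocentric, with its centromere at the low end of the coordinates. Tumor cell lines often carry gains, losses and fusions of whole chromosomes or of chromosome arms, and RNA from many neighbouring genes can then differ together, although neighbours also share enhancers and cluster by family. No DNA was measured here, so copy number was not tested. In bulk RNA, a small shift in all cells and a larger one in some of them cannot be told apart. The chromosome carries several gene families in tandem. Among them are the S100 calcium-binding proteins, the mu-class glutathione S-transferases and the guanylate-binding proteins (GBPs), which are interferon-inducible GTPases that act against intracellular pathogens.

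The GBP cluster lies at 142.49 to 142.62 Mb, ends one of the segments described below and carries its 5 highest values, so the bases before its start sites are shown. Each run covers the 250 bases before the RefSeq start site on GRCm38.p6, read 5′ to 3′ on the plus strand. Capitals mark matches of the core of the interferon-stimulated response element, that is GAAA followed after any 2 bases by GAAA again, found in all 5 runs in its reverse complement.
Gbp5, chr3:142496684-142496933, plus strand: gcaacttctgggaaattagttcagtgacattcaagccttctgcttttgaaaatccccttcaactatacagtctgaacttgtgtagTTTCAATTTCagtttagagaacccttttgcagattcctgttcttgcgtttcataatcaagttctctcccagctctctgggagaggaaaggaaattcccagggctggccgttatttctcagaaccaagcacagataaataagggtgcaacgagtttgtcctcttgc
Gbp7, chr3:142530086-142530335, plus strand: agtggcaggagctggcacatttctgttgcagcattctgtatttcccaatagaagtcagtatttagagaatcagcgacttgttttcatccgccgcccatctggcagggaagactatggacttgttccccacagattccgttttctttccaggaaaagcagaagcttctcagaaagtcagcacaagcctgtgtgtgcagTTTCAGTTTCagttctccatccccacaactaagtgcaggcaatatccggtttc
Gbp3, chr3:142559794-142560043, plus strand: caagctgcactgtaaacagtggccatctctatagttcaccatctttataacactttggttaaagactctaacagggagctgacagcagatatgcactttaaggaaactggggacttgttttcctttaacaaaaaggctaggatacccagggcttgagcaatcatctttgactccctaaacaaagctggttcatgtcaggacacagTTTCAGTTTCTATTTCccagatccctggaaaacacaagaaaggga
Gbp2b, chr3:142594597-142594846, plus strand: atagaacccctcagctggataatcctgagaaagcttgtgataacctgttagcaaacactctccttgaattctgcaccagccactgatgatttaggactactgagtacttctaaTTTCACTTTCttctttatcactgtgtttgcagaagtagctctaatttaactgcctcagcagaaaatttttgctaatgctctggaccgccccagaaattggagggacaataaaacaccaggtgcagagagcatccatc
Gbp2, chr3:142620413-142620662, plus strand: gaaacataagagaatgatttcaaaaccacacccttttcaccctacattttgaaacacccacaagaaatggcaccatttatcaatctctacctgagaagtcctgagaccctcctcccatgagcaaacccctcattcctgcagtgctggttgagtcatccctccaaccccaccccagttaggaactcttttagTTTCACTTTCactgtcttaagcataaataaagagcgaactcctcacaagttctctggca

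In Gbp3 a pair of matches overlap in a single stretch of capitals. The match nearest to the start site ended 44 bases before it in Gbp7, 30 bases in Gbp3, 50 bases in Gbp2, 128 bases in Gbp2b and 156 bases in Gbp5. The RefSeq start of Gbp5 lies 2956 bases from the GENCODE start used for its position. Over windows that add the 50 bases after the start site, searched on both strands, this core stood in 3.44% of all 32851 mouse promoter windows and in 3.47% of the 461 windows that matched a chromosome 3 member, 16 in number. The 20 members from Ppp3ca to Gbp2 had 16 windows, of which 6 held the motif, 5 of them GBP windows. None of the 29 windows of the members from Kcnd3 to Scarna2 held it. The STAT-binding palindrome TTCNNNGAA stood in 6.29% of member windows and 8.30% of all windows, and TATAAA in 9.11% and 13.6%. Promoter windows of members held a median of 20 CG dinucleotides against 7 over all windows. Members had passed the count filter, whereas all windows include genes that did not. The part of the filter in these differences was not tested. A match is a string of letters and no measure of binding.

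Chromosome 3 gave more of the RNA in AxR than in P. It held 5.26%, 5.20% and 5.20% of all counts in the P libraries and 6.59%, 6.71% and 6.77% in the AxR libraries (5.22% ± 0.0369 and 6.69% ± 0.0887, SD, n = 3). The AxR libraries all stood above the P libraries in this share, which depends on no scaling between libraries. Without the 10 most abundant members the share was 4.64%, 4.57% and 4.57% in P and 5.64%, 5.77% and 5.84% in AxR.

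The median member was 1.25-fold higher in AxR, a log2 fold change of 0.33 with quartiles at 0.02 and 0.70, while the median of all 13609 genes tested was 0.01. Against the mean of P, the median member stood at 0.31 in AxR replicate 1, 0.35 in replicate 2 and 0.30 in replicate 3 on the log2 scale. Of the 721 members, 550 (76.3%) had a value above 0, against 50.7% of all genes tested. By edgeR's quasi-likelihood test over all genes at an adjusted p under 0.05, 414 members (57.4%) were called higher, where the share over all genes was 32.9%, and 79 (10.96%) were called lower, where it was 30.6%. In either direction the share over all genes was 63.4%. The remaining 228 had no call. In 429 members all 3 AxR libraries lay above all 3 P libraries (35.3% over all genes), in 91 all lay below (32.8% over all genes), and in 201 the lines overlapped. A called log2 fold change of at least 1 was found in 111 members in the higher direction (8.11% over all genes) and in 22 in the lower (4.71% over all genes). The spread among members, a robust SD of 0.496, was close to the 0.524 of all genes, so the chromosome was displaced as a broad distribution with members on either side of 0.

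**Figure D1:**
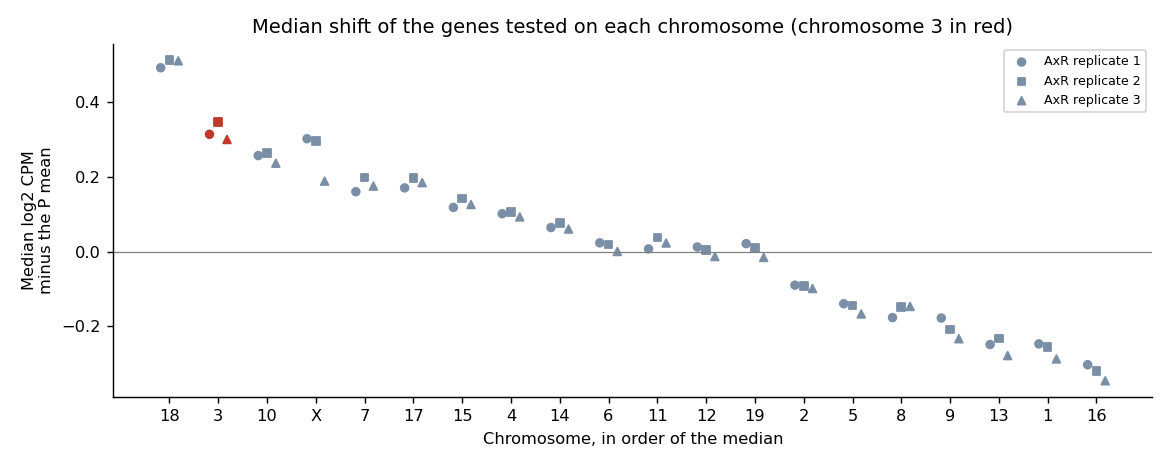
Median of log2 CPM in each AxR library minus the mean of the 3 P libraries (vertical axis, log2) over the genes tested on each chromosome (horizontal axis, in order of the median). Chromosome 3, in red, lies at 0.31, 0.35 and 0.30, below chromosome 18 and above all other chromosomes in each of the 3 libraries.

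Among the 20 chromosomes, from 0.50 on chromosome 18 to a median of -0.32 on chromosome 16, chromosome 3 had the second highest median. Chromosome 3 fell into 5 segments by the procedure described below. Chromosomes 18 and 10, its neighbours in that order at 0.50 and 0.25, were each described by 1 segment, chromosome X by 2, chromosome 7 by 3, chromosomes 2 and 17 by 5 and chromosome 4 by 6, so a division into several segments was not particular to chromosome 3.

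The displacement differed little by strand or exon length, was smaller at higher abundance and was smallest in processed pseudogenes. The median was 0.43 in the lowest tertile of members by mean CPM, 0.33 in the middle tertile and 0.27 in the highest tertile. Members on the plus and on the minus strand both had a median of 0.33. Tertiles by exon length had medians of 0.34, 0.34 and 0.29, from shortest to longest. The 568 protein-coding members had a median of 0.33 and the 103 members of other biotypes 0.47, while the 50 processed pseudogenes, intronless copies of transcripts that often share reads with their parent genes elsewhere, lay at 0.09 with 56.0% above 0. The lines did not enter membership evenly: 28 members reached 10 counts in all 3 AxR libraries and in no P library, 9 did so in P alone, and 626 had at least 10 counts in every library. Just inside the threshold, Sv2a had 10, 13 and 12 counts in P and 7, 7 and 7 in AxR, and S1pr1 had 28, 32 and 10 in P and 1, 4 and 5 in AxR. Just outside it, Gm8515 had 9.32, 10.23 and 9.87 estimated counts in P and 9.30, 3.18 and 7.24 in AxR, and Gm43713 had 16.09, 10.18 and 9.25 in P and 0.92, 6.26 and 0 in AxR. Of the 2163 chromosome 3 genes that were no members, 1452 had no count in any library.

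**Figure D2:**
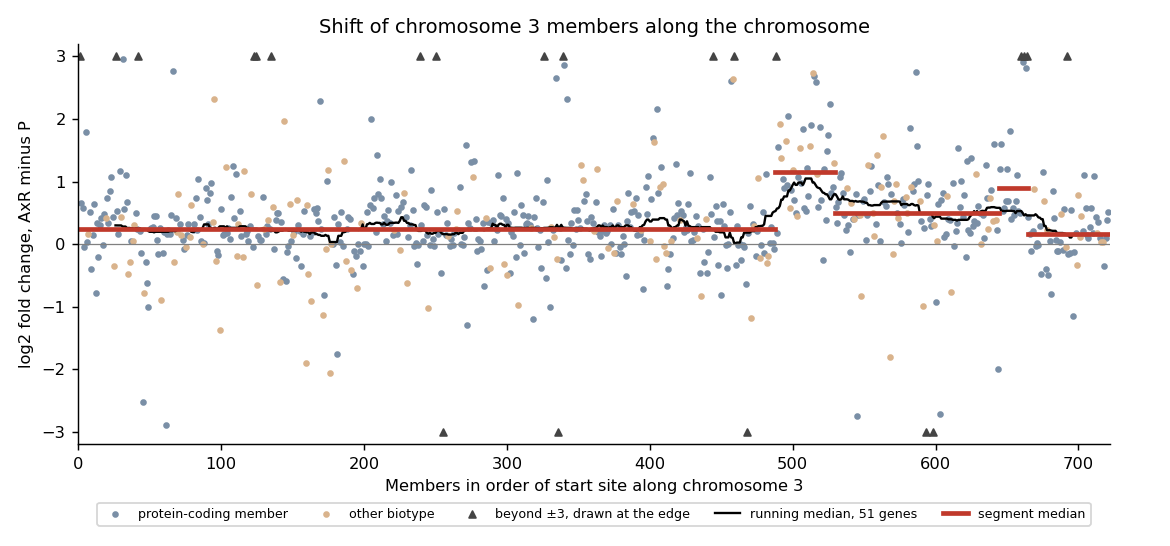
Log2 fold change of AxR over P (vertical axis) of the 721 members in order of start site (horizontal axis), with protein-coding members in blue, others in tan, triangles for values beyond 3 in either direction, the running median of 51 members in black and the median of each segment in red. The running median stays above 0 along the whole chromosome, is highest over the members from Kcnd3 to Scarna2 (segment median 1.16) and is lower again in the last segment (0.17).

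Along the chromosome, running medians of the members lay above 0 nearly throughout, at unequal heights, while 76.3% of single members had a value above 0. The running median over 51 consecutive members was above 0 in all 671 windows. It was lowest, at 0.017, in the window from 98.34 to 104.86 Mb centred on Ampd1, and highest, at 1.05, in the adjoining window from 104.86 to 108.72 Mb. The lowest and the highest window were thus neighbours. With windows of 25 members the range was -0.025 to 1.22, and 34 of 697 windows lay below 0, the lowest of them from 65.39 to 70.81 Mb.

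A least-squares segmentation placed 4 break points and gave 5 segments. The first, from Zfhx4 at 5.22 Mb to Cttnbp2nl at 105.05 Mb, held 487 members with a median of 0.24, of which 348 lay above 0, 250 were called higher and 64 lower. The second, from Kcnd3 at 105.45 Mb to Scarna2 at 108.55 Mb, held 42 members in 3.1 Mb with a median of 1.16, a 2.23-fold difference. The third, from Tmem167b at 108.56 Mb to Slc39a8 at 135.83 Mb, held 115 members with a median of 0.49, of which 78 were called higher and 8 lower. The fourth, from Ppp3ca at 136.67 Mb to Gbp2 at 142.62 Mb, held 20 members with a median of 0.90, all called higher. The fifth, from Kyat3 at 142.70 Mb to Wls at 159.84 Mb, held 57 members with a median of 0.17, of which 26 were called higher and 6 lower. The shares of all genes called, given above, are the background for these counts.

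The break between Cttnbp2nl and Kcnd3 was the firmest of the 4. It was placed at 105.45 Mb in each AxR library taken alone against the P mean, and between 105.45 and 105.80 Mb under every alternative for which the segmentation was repeated, which left out limma-voom. The gap between these start sites is 399 kb. Cttnbp2nl, which encodes a cortactin-binding protein, was at 172, 182 and 173 CPM in P and 165, 163 and 172 CPM in AxR, so AxR lay slightly lower and the value was -0.08 ± 0.05 (SE). Wnt2b, a secreted Wnt ligand, was at 0.669, 0.981 and 1.5 CPM in P and 0.952, 1.02 and 1.2 CPM in AxR, overlapping throughout. On the other side Kcnd3, a voltage-gated potassium channel subunit, was at 0, 0.0577 and 0 CPM in P, with 1 count in all, and at 1.97, 2.17 and 1.88 CPM in AxR. Ddx20, an RNA helicase of the SMN complex, was at 49.4, 56.7 and 49.8 CPM in P and 59.9, 56.3 and 61.3 CPM in AxR, so the lines overlapped at one library each, with a value of 0.19 ± 0.07. Its call was lost without P replicate 1 (0.15), P replicate 3 (0.15), AxR replicate 1 (0.17) or AxR replicate 3 (0.16). Rap1a, a small GTPase, at 105.80 Mb, was the first abundant member past the gap that lay far from 0, at 81.2, 64.4 and 80.8 CPM in P and 163, 160 and 145 CPM in AxR (1.05 ± 0.08).

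The second break, between Scarna2 and Tmem167b, was placed at 108.56 Mb in AxR replicates 1 and 2 and at 108.55 Mb in AxR replicate 3. Sars, the cytosolic seryl-tRNA synthetase, stood before it at 491, 506 and 487 CPM in P and 883, 911 and 998 CPM in AxR (0.91 ± 0.05). Scarna2, a small RNA of Cajal bodies, was at 0.426, 0.750 and 0.456 CPM in P and 1.65, 1.98 and 0.513 CPM in AxR. Its AxR replicate 3 fell within the P range, and its call was lost without P replicate 1 (1.15) or P replicate 3 (1.19). Behind the break stood Tmem167b at 86.0, 77.9 and 86.6 CPM in P and 122, 126 and 130 CPM in AxR (0.59 ± 0.06) and Taf13, a TFIID subunit, at 32.5, 27.1 and 30.7 CPM in P and 38.7, 40.6 and 35.4 CPM in AxR (0.34 ± 0.08). In both, all AxR libraries lay above P, by less than in most members before the break. The break was a step between 2 levels above 0, and it was not found when only coding members of at least 10 CPM in the higher line were used.

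The last pair of breaks depended on the GBP genes. Neither of them was found once the 5 GBP genes were left out, in AxR replicate 1 alone or at a penalty of 6, when only the breaks at 105.45 and 108.56 Mb were placed. Before the third break, Nfkb1, the p105 and p50 subunit of NF-kB, was at 166, 183 and 176 CPM in P and 203, 200 and 211 CPM in AxR (0.23 ± 0.05), and Slc39a8, a zinc and manganese importer, at 1.09, 0.981 and 0.912 CPM in P and 0.444, 0.191 and 0.114 CPM in AxR (-1.99 ± 0.44). Behind it, Ppp3ca, the catalytic subunit of calcineurin, was at 200, 164 and 199 CPM in P and 415, 437 and 451 CPM in AxR (1.21 ± 0.07). No line overlapped the other in these 3 genes, and the direction differed between Slc39a8 and the other two. Behind the fourth break, Kyat3, a kynurenine aminotransferase, was at 6.26, 6.52 and 6.06 CPM in P and 8.70, 8.42 and 8.27 CPM in AxR (0.43 ± 0.12), and Gtf2b, the basal transcription factor TFIIB, at 24.7, 26.1 and 25.3 CPM in P and 29.1, 27.6 and 28.7 CPM in AxR (0.17 ± 0.07). The call on Gtf2b was lost with any single library left out, at values of 0.15 to 0.19.

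Abundant coding genes alone gave a simpler map. The 466 coding members with at least 10 CPM in the higher line fell into 4 segments, with medians of 0.52 over 26 members from Pex2 to Gyg (5.58 to 20.16 Mb), 0.23 over 287 members from Tbl1xr1 to Ddx20 (22.08 to 105.69 Mb), 0.69 over 113 members from Rap1a to Gbp2 (105.80 to 142.62 Mb) and 0.10 over 40 members from Gtf2b to Wls (142.77 to 159.84 Mb). Among these genes the raised stretch therefore ran from Rap1a to Gbp2, and no break set the 42-member block apart within it. The 22 such genes of the block still had the higher median, 0.88, against 0.61 in the third segment and 0.69 in the fourth.

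**Figure D3:**
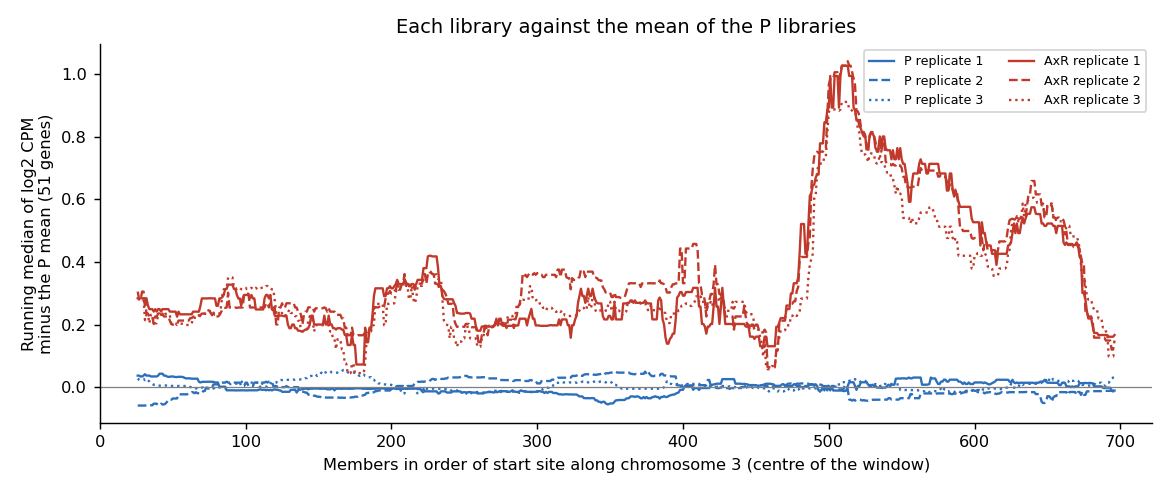
Running median over 51 consecutive members (vertical axis, log2 CPM minus the P mean) for each library, in order of start site (horizontal axis), with P in blue and AxR in red. The 3 P curves lie close to 0 along the whole chromosome, and the 3 AxR curves rise together over the second segment, whose medians in the single AxR libraries were 1.11, 1.10 and 1.00.

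The block from Kcnd3 to Scarna2 was higher in AxR for 41 of its 42 members. It held 40 called higher (32.9% over all genes), 1 called lower (30.6% over all genes) and 1 without a call, Gm43071, and 24 members reached a log2 fold change of 1. Its quartiles were 0.72 and 1.72. The 22 coding members with at least 10 CPM in the higher line had a lower median of 0.88, a 1.84-fold difference, and the 11 non-coding members had 1.38. That subset leaves out non-coding members and members of low abundance together, so their parts in the higher median of the block cannot be told apart. The genes of the block named here were picked as its abundant members after their values had been seen, apart from those beside its ends and those of the gene groups.

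Several coding members of the block stood close to 0.88, the median of its coding members with at least 10 CPM. Atp5f1, a stalk subunit of mitochondrial ATP synthase, was at 214, 234 and 231 CPM in P and 451, 442 and 417 CPM in AxR (0.95 ± 0.05). Wdr77, the partner of the arginine methyltransferase PRMT5, was at 146, 155 and 150 CPM in P and 270, 275 and 296 CPM in AxR (0.90 ± 0.05). The lines did not overlap in either gene, and the folds were 1.93 and 1.87. Lamtor5, a subunit of the Ragulator complex that brings mTORC1 to lysosomes, was at 37.6, 40.7 and 39.3 CPM in P and 80.0, 80.8 and 72.2 CPM in AxR (0.98 ± 0.06). Cept1, which makes choline and ethanolamine phospholipids, was at 94.9, 89.6 and 97.3 CPM in P and 126, 131 and 143 CPM in AxR (0.51 ± 0.06). Cept1 was one of the less displaced members.

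Csf1, the ligand of the macrophage receptor CSF1R, was at 419, 466 and 416 CPM in P and 677, 730 and 801 CPM in AxR, 1.70-fold higher (0.76 ± 0.06). Gnai3, an inhibitory G protein alpha subunit, was at 353, 326 and 380 CPM in P and 596, 571 and 567 CPM in AxR (0.71 ± 0.06). Each lay below the block's median, with no overlap between the lines. Ahcyl1, a regulator of the IP3 receptor, was at 289, 291 and 298 CPM in P and 691, 664 and 683 CPM in AxR, 2.32-fold higher (1.22 ± 0.04). Celsr2, an atypical cadherin of planar cell polarity, was at 21.1, 21.3 and 18.5 CPM in P and 35.7, 35.5 and 36.9 CPM in AxR (0.83 ± 0.08).

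The largest values in the block belonged to genes that were low in P. Gstm2, a mu-class glutathione S-transferase, was at 2.25, 2.42 and 2.87 CPM in P and 15.3, 17.9 and 15.6 CPM in AxR, 6.47-fold higher (2.69 ± 0.13). Its neighbours Gstm5 and Gstm1 had values of 1.91 ± 0.14 and 2.6 ± 0.28, and since these genes are near copies, the division of reads among them is uncertain. Psrc1, a microtubule-associated protein of the spindle, was at 5.23, 5.48 and 6.25 CPM in P and 27.0, 25.5 and 27.4 CPM in AxR (2.24 ± 0.10). Psma5, an alpha subunit of the proteasome core, was at 68.4, 75.5 and 73.1 CPM in P and 216, 207 and 186 CPM in AxR, 2.81-fold higher (1.49 ± 0.06), the farthest from 0 among the block's members above 100 CPM in AxR. The exception was Amigo1, a neuronal adhesion protein inside the block, at 17.5, 15.9 and 15.8 CPM in P and 13.9, 14.3 and 12.9 CPM in AxR. Amigo1 fell (-0.26 ± 0.09) although both of its neighbours, Gnai3 and Cyb561d1 (1.2 ± 0.12), rose. Antisense and intronic transcripts of the block, such as 4933431E20Rik, overlap coding genes, and the strand setting of the counting was not given in the sources used here, so their reads cannot be told apart from those of their partners.

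**Figure D4:**
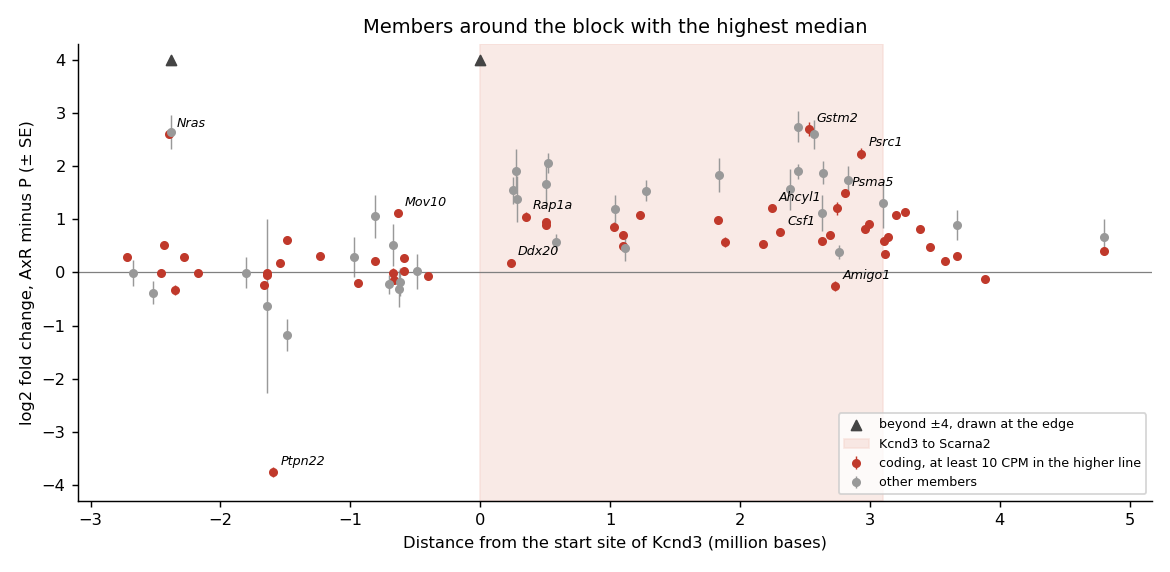
Log2 fold change of AxR over P with its SE (vertical axis) of members near the start site of Kcnd3 (horizontal axis, distance in Mb), with coding members of at least 10 CPM in the higher line in red, others in grey, and the block from Kcnd3 to Scarna2 shaded. Before the shaded block most members lie close to 0, with Nras and Ptpn22 among the exceptions, and inside it Amigo1 alone lies below 0.

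From Ppp3ca to Gbp2 all 20 members, each of them coding, were called higher, and the 15 that were not GBP genes had a median of 0.68. H2afz, the histone variant H2A.Z, was at 197, 189 and 209 CPM in P and 655, 597 and 559 CPM in AxR, 3.05-fold higher (1.61 ± 0.06). Mttp, which loads lipid onto apolipoprotein B, was at 8.03, 7.73 and 8.34 CPM in P and 28.0, 27.4 and 28.8 CPM in AxR (1.81 ± 0.08), and it had the largest value of the 15. Eif4e, the cap-binding translation factor, was at 206, 193 and 214 CPM in P and 344, 324 and 320 CPM in AxR (0.69 ± 0.05), close to the median of the 15. Adh5, which clears formaldehyde and S-nitrosoglutathione, was at 113, 109 and 104 CPM in P and 162, 162 and 164 CPM in AxR (0.58 ± 0.05). Mttp and Eif4e were named after their values had been seen.

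The GBP genes were low in P and higher in AxR. The summed leukocyte markers, at 9.49 to 9.81 CPM in P and 33.5 to 43.6 CPM in AxR, moved in the same direction. Only 2 of these 10 markers reached 1 CPM in a library, and Cd3e, Fcer1g and Tyrobp were at 0 in every library. The part of leukocyte markers in the GBP values was not tested. Gbp2 was at 2.55, 2.37 and 3.45 CPM in P and 31.6, 33.5 and 24.5 CPM in AxR, 10.7-fold higher (3.42 ± 0.16). Gbp3 was at 1.03, 0.519 and 0.977 CPM in P and 11.9, 12.8 and 10.1 CPM in AxR (3.78 ± 0.20). Gbp2b and Gbp7 had values of 2.81 ± 0.15 and 2.92 ± 0.16. Gbp5 had at most 1 count in a P library and was at 0.825, 1.40 and 1.65 CPM in AxR. In all 5, AxR replicates lay above P replicates without overlap, and since the genes are near copies the division of reads among them is uncertain. The runs printed above are theirs.

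**Figure D5:**
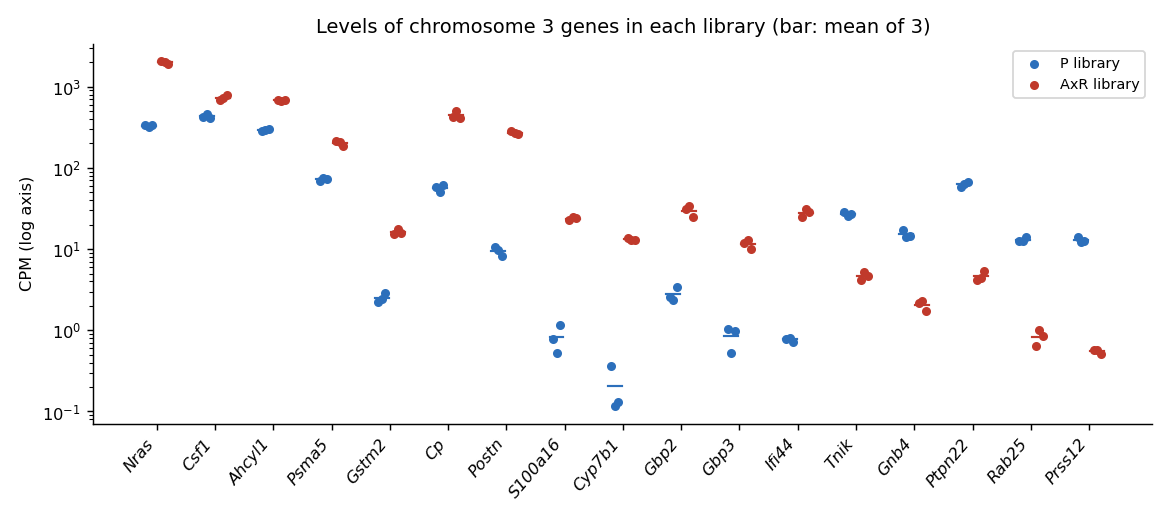
Level of selected members in each library (vertical axis, CPM on a log axis), with P in blue, AxR in red and a bar for the mean of 3. The lines do not overlap in any of the genes drawn, which include the 5 members with the highest and the 5 with the lowest log2 fold change among those of at least 10 CPM in the higher line.

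Against the level of their own segment, 35 members lay more than 1.49 above and 16 more than 1.49 below, on the log2 scale, a distance of 3 robust SDs. With at least 10 CPM in the higher line these were 14 and 5. Nras, the GTPase of the MAP kinase and PI3-kinase pathways, was at 336, 315 and 335 CPM in P and 2059, 2041 and 1921 CPM in AxR, 6.10-fold higher (2.61 ± 0.05). Nras lay at 103.06 Mb, inside the stretch where the running median was lowest.

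The Nras difference reached little further. Next to it stood the lincRNA Gm43062, at 0.304, 0.462 and 0.261 CPM in P and 2.41, 1.98 and 2.17 CPM in AxR, and Ampd1, the muscle AMP deaminase, with no count in any P library and 0.889, 1.15 and 1.43 CPM in AxR. Both are at or near the lowest levels of the filter. Beyond them Dennd2c was at 15.0, 16.7 and 15.6 CPM in P and 12.3, 12.1 and 13 CPM in AxR (-0.33 ± 0.09), and Sike1, before Nras at 103.00 Mb, was at 67.6, 63.8 and 62.2 CPM in P and 69.2, 58.6 and 65.2 CPM in AxR. Dennd2c was lower in AxR and Sike1 overlapped, so the large values described here belonged to Nras, Gm43062 and Ampd1, all starting at 103.06 to 103.07 Mb. This stretch was picked out after the values had been seen.

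Other members far above their segment were scattered. Cyp7b1, an oxysterol hydroxylase, was at 0.365, 0.115 and 0.130 CPM in P and 13.7, 13.1 and 12.9 CPM in AxR (5.97 ± 0.23). Ifi44, an interferon-induced protein, was at 0.790, 0.808 and 0.716 CPM in P and 24.9, 31.0 and 28.3 CPM in AxR (5.17 ± 0.15). S100a16 was at 0.790, 0.519 and 1.17 CPM in P and 22.5, 24.8 and 24.0 CPM in AxR (4.85 ± 0.17). These 3 genes were near 0 in P and clear in every AxR library. Postn, the matrix protein periostin, was at 10.7, 9.69 and 8.27 CPM in P and 284, 269 and 258 CPM in AxR, 28.2-fold higher (4.82 ± 0.08). Cp, the copper-carrying ferroxidase ceruloplasmin, chosen after its values had been seen, was at 58.3, 50.9 and 61.8 CPM in P and 424, 495 and 409 CPM in AxR (2.96 ± 0.09).

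Members far below their segment were scattered as well, although Ptpn22 and Tnik lay in runs of members below 0 described further on. Prss12, a serine protease, was at 13.9, 12.3 and 12.6 CPM in P and 0.571, 0.574 and 0.513 CPM in AxR, the lowest value of the chromosome among members of at least 10 CPM (-4.53 ± 0.18). Rab25, a GTPase of epithelial recycling endosomes, was at 12.5, 12.6 and 14.1 CPM in P and 0.635, 1.02 and 0.855 CPM in AxR (-3.95 ± 0.17). Ptpn22, a tyrosine phosphatase best known from lymphocytes, was at 58.3, 63.9 and 66.2 CPM in P and 4.13, 4.46 and 5.30 CPM in AxR (-3.75 ± 0.10). All 3 were low in every AxR library. Gnb4, a G protein beta subunit, was at 17.0, 13.9 and 14.5 CPM in P and 2.16, 2.30 and 1.71 CPM in AxR (-2.88 ± 0.15), and Tnik, a kinase that acts with TCF4 in Wnt signalling, at 28.9, 25.7 and 26.7 CPM in P and 4.19, 5.29 and 4.68 CPM in AxR (-2.52 ± 0.10).

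Runs of at least 5 consecutive members below 0 were found at 4 places, all before the first break. The longest had 7 members, from Trim33 to Ptpn22 (103.28 to 103.86 Mb), of which 2 were called lower. One of 6 ran from Pld1 to Mecom (27.94 to 30.55 Mb) with 4 called lower, and runs of 5 lay from Gm22009 to Gm6634 (69.09 to 70.81 Mb) and from Gm9207 to Lix1l (96.46 to 96.60 Mb) with 3 and 2. The share called lower over all genes was 30.6%. Members of a run were picked for values below 0, so none of them could be called higher. Trim33, a ubiquitin ligase that binds SMAD4, was at 210, 202 and 210 CPM in P and 203, 203 and 209 CPM in AxR, so that run began with a gene at parity. No run of this length lay beyond 105.45 Mb.

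Gene groups on the chromosome were taken from lists by function. For every list below, the shares over all genes were 32.9% called higher and 30.6% called lower, and over the chromosome 3 members 57.4% and 10.96%. The list of guanylate-binding and interferon-inducible genes had the highest median, 2.81 over 11 members, with 8 called higher and 1 lower. With the member at the detection floor in P set to its lower bound the median was 2.73. Adar, an RNA-editing enzyme, was at 85.7, 91.2 and 82.3 CPM in P and 107, 122 and 125 CPM in AxR (0.45 ± 0.06), and Tlr2, a receptor for bacterial lipopeptides, at 9.12, 10.4 and 9.83 CPM in P and 22.9, 28.4 and 27.5 CPM in AxR (1.42 ± 0.10). Isg20l2, a nucleolar exonuclease, fell from 128 CPM in each P library to 98.5, 103 and 108 CPM (-0.31 ± 0.05). The most abundant genes of this list thus moved far less than its GBP genes.

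Of 7 glutathione and redox genes, 5 were called higher and 1 lower, with a median of 1.57, and 3 of the 5 were the Gstm genes of the block. Gclm, the modifier subunit of the enzyme that limits glutathione synthesis, was at 42.6, 47.6 and 44.2 CPM in P and 143, 129 and 128 CPM in AxR, 2.97-fold higher (1.57 ± 0.06). Txnip, the thioredoxin-binding arrestin, was at 172, 153 and 165 CPM in P and 87.7, 114 and 106 CPM in AxR (-0.67 ± 0.08). Gclm and Txnip moved in opposite directions without overlap. Selenof, a selenoprotein of the endoplasmic reticulum, was at 341, 321 and 352 CPM in P and 364, 344 and 324 CPM in AxR, which overlapped (0.02 ± 0.05).

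Of 17 lipid and energy genes, 15 were called higher and 1 lower, against 32.9% and 30.6% over all genes (median 0.58). Phgdh, the first enzyme of serine synthesis, was at 305, 335 and 307 CPM in P and 377, 369 and 418 CPM in AxR (0.30 ± 0.06). Sgms2, a sphingomyelin synthase, was at 352, 326 and 350 CPM in P and 417, 374 and 373 CPM in AxR (0.18 ± 0.05), a call lost without AxR replicate 1 (0.12). Of 14 proteasome and ubiquitin genes, 13 were called higher and none lower, against the same shares (median 0.39). Ube2d3, a ubiquitin-conjugating enzyme, was at 490, 406 and 501 CPM in P and 864, 845 and 850 CPM in AxR (0.87 ± 0.07), and Trim59 at 188, 179 and 199 CPM in P and 240, 258 and 250 CPM in AxR (0.40 ± 0.05). Among the 3 most abundant of this list Trim33 alone stayed at parity.

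Cell cycle genes were also higher or without a call. Of 11, 9 were called higher and none lower, with a median of 0.38 that was close to that of all members. Cenpe, the kinetochore kinesin CENP-E, was at 214, 246 and 227 CPM in P and 606, 518 and 527 CPM in AxR, 2.40-fold higher (1.26 ± 0.07). Smc4, a condensin subunit, was at 570, 592 and 609 CPM in P and 870, 772 and 763 CPM in AxR (0.44 ± 0.05), and Ect2, the exchange factor that starts cytokinesis, at 287, 266 and 301 CPM in P and 406, 399 and 397 CPM in AxR (0.49 ± 0.05).

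The 8 members of the matrix, adhesion and secreted list had a median of 0.82, with 5 called higher and none lower. Besides Postn, Adam15, a membrane metalloprotease, was at 40.3, 44.5 and 40.6 CPM in P and 54.5, 53.6 and 53.0 CPM in AxR (0.36 ± 0.06). Vcam1, an adhesion molecule for leukocyte integrins, was at 235, 245 and 238 CPM in P and 243, 250 and 254 CPM in AxR, and the lines overlapped (0.06 ± 0.05). Of 17 growth signalling genes, 10 were called higher and 2 lower with a median of 0.26, and Nras, Csf1 and Gnai3 were the most abundant.

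S100, ribosomal and chromatin lists lay near or below the median of all members. Of 10 S100 genes, 3 were called higher and 3 lower (median 0.13). S100a6 was at 746, 887 and 849 CPM in P and 946, 864 and 741 CPM in AxR (0.04 ± 0.09), S100a11 rose from 253, 273 and 269 CPM to 341, 309 and 299 CPM (0.26 ± 0.06), and S100a10, the annexin A2 partner, fell from 295, 323 and 318 CPM to 277, 273 and 240 CPM (-0.25 ± 0.06). S100a6 overlapped widely between the lines. Neighbouring members of one family thus differed in direction, from S100a16 at 90.54 Mb to S100a10 at 93.56 Mb. Of 14 ribosomal and translation genes, 7 were called higher and 1 lower (median 0.17). Rps3a1, a small-subunit ribosomal protein, was at 1064, 1051 and 1088 CPM in P and 1223, 1193 and 1181 CPM in AxR (0.17 ± 0.04), and Rps27, another, was at 393, 403 and 419 CPM in P and 405, 429 and 371 CPM in AxR (-0.01 ± 0.06). Of 28 RNA-processing and chromatin genes, 17 were called higher and 4 lower (median 0.24). Lmna, which encodes the nuclear lamins A and C, was at 527, 548 and 534 CPM in P and 632, 617 and 615 CPM in AxR (0.21 ± 0.04), and Hdgf, a chromatin-binding growth factor, was at 632, 657 and 659 CPM in P and 658, 625 and 618 CPM in AxR (-0.03 ± 0.05).

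The 2 shortest lists were mixed. Of 4 NF-kB and apoptosis genes, 3 were called higher and 1 lower (median 0.27). Mcl1, an anti-apoptotic BCL2 relative, was at 210, 212 and 227 CPM in P and 265, 272 and 263 CPM in AxR (0.30 ± 0.05), and Bcl10, a scaffold of NF-kB activation, fell from 93.2, 96.5 and 92.2 CPM to 64.3, 63.6 and 72.5 CPM (-0.49 ± 0.06). The 3 ephrin-A genes, which encode ligands of the Eph receptors, lie at 89.28 to 89.34 Mb and had a median of -0.41. Efna1 rose from 50.8, 49.3 and 49.8 CPM to 57.2, 64.4 and 67.2 CPM (0.33 ± 0.07), Efna4 fell from 8.88, 9.35 and 9.83 CPM to 7.05, 7.14 and 6.96 CPM (-0.41 ± 0.11), and Efna3 was at 1.16, 1.15 and 1.24 CPM in P and 0.698, 0.893 and 0.627 CPM in AxR (-0.68 ± 0.30) without a call. These neighbours, like the S100 genes, differed in direction inside a stretch whose median lay above 0.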

How the data were processed

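RNA of 3 P and 3 AxR libraries was sequenced from stranded, poly(A)-selected libraries. Per the submitters' processing notes and the study's methods, the authors checked reads with FastQC 0.11.5, used STAR 2.6.0a to align them to GRCm38 and quantified genes with RSEM 1.3.1. The deposited values are its gene-level estimated counts, for which RSEM divides ambiguous reads among genes. The strand setting of the counting was not given in the sources used here. Lines came from the sample labels.

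Estimated counts were rounded to whole numbers, filtered at 10 counts in at least 3 of 6 libraries, scaled by upper quartile (factors 0.967 to 1.02) and fitted in edgeR 4.0.16 (R 4.3.3) on the line alone, with quasi-likelihood F tests adjusted by Benjamini-Hochberg over 13609 genes at 0.05. The biological coefficient of variation was 0.0594. Alternatives used DESeq2 1.42.0 and limma 3.58.1. CPM used the scaled library sizes, and log2 values of single libraries use a prior count of 2. A count of 3 or less corresponds to 0.171 to 0.195 CPM and was taken as the detection floor, which covers counting error only.

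Positions and start sites came from a later GENCODE annotation of GRCm38, in which 53360 of the 53465 identifiers were found. The segmentation minimized squared deviations of log2 fold changes in gene order, held within 3 robust SDs of the median, with at least 10 genes in a segment and a penalty of 3 noise variances times the log of the number of genes per break. For absolute deviations the penalty was rescaled on simulated data after the results were known. The fits and the segmentation were tested on simulated data.

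The members and gene lists were chosen with earlier results of these data known. Genes named were the 5 highest and 5 lowest called members of at least 10 CPM in the higher line without overlap between the lines, the pair on each side of every break, the 3 most abundant members of each list, the 5 most abundant members and those at the count threshold. Others are named as chosen after their values were seen. Some items are not reported here.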

Additional observations from a re-analysis of the deposited data

How the results depend on the processing

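The median shift of chromosome 3 held under the scalings and filters tried and with DESeq2. The order of its segments held under those settings that kept a low-count filter. With no such filter segment 4 was at 1.16, and segment 2 was at 1.16 in the main setting. These values come from unlike settings, so the order of segments 2 and 4 without the filter is not stated here. The breaks at 108.56, 136.67 and 142.7 Mb were each absent under at least 1 setting. With limma-voom, calls and single genes were computed, and the medians and breaks were not. With a required log2 fold change of at least 1, 111 members were called higher and 22 lower. The lowest window of 25 members was at -0.025 and the highest at 1.22, against 0.17 and 0.82 with the widest windows tried. With at least 10 counts in every library the median member was at 0.30 and the 5 segments at 0.22, 0.95, 0.59, 0.68 and 0.12, with breaks at 105.7 and 142.77 Mb and none near 136.67 Mb. With no low-count filter the median member was at 0.38, segments 1, 3, 4 and 5 at 0.28, 0.62, 1.16 and 0.10, and the second break at 109.12 Mb, among 6 breaks with none near 136.67 Mb. With scaling by library size only, segments 1, 4 and 5 were at 0.22, 0.88 and 0.14, and segment 5 was at 0.15 with TMM and with DESeq2. Coding members alone gave 0.98 and 0.14 for segments 2 and 5. The coding members of at least 10 CPM, an alternative added after seeing the data, gave 0.88, 0.61, 0.69 and 0.10 for segments 2 to 5 and breaks at 105.8 and 142.77 Mb. A penalty of 6, or leaving out the GBP genes (also added later), left 2 breaks, and absolute deviations placed the last one at 142.77 Mb and none near 136.67 Mb. Segments of at least 5 genes also gave none near 136.67 Mb. AxR replicate 2, taken alone against the P mean, gave 6 breaks, among them breaks at 96.22 and 96.46 Mb. The causes of these moves were not tested.

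With 1 library left out in turn, the median member lay between 0.29 and 0.34, members called higher between 368 and 409 and lower between 67 and 85. Segment medians ranged over 0.21 to 0.26, 1.01 to 1.13, 0.47 to 0.62, 0.69 to 0.92 and 0.12 to 0.19, and the first 3 breaks over 105.45 to 105.7, 108.56 to 108.91 and 135.21 to 136.67 Mb.

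The replicate numbers gave no sign of pairing the samples, since same-numbered P and AxR libraries had deviations correlated at -0.018, -0.003 and -0.012. A replicate block gave 413 members higher and 79 lower and a median of 0.33. Gtf2b lost its call with the block, with TMM, DESeq2, library size only, filterByExpr, no filter, or 10 counts in every library, at 0.14 to 0.17. Ddx20 lost its call with DESeq2 and library size only (0.17 and 0.16), and Scarna2 with limma-voom (1.09). Among genes without a call, Efna3 passed with 10 counts in every library (-0.68), and signs turned. With single libraries left out, S100a6 ranged from -0.046 to 0.13 (below 0 without AxR replicate 1 or P replicate 1), Selenof from -0.021 to 0.067 (below 0 without AxR replicate 1 or P replicate 2, and at -6.8e-05 with library size only), Rps27 from -0.066 to 0.044 (above 0 without AxR replicate 3 or P replicate 3), and Wnt2b from -0.21 to 0.35 (below 0 without AxR replicate 3, P replicate 1 or P replicate 2). Depth limits what can be said of members near the detection floor of 3 counts.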
